A study of Mus musculus with 12 samples.

Results

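Chromatin accessibility was examined at 10 genes that encode E-box binding and clock factors, Usf1, Usf2, Max, Myc, Mlx, Mlxip, Bhlhe40, Bhlhe41, Clock and Arntl, in cultured mouse cortical neurons assayed by ATAC-seq. Merging the peaks of 12 libraries, with an overlap of 1 bp sufficient, gave 263562 accessible regions. A region was assigned to a gene when it lay in the gene body or within 10 kb upstream of one of its transcription start sites, and 84 of the 263562 regions met this rule. The neurons were prepared from C57BL/6 embryos at day 18 and kept for 7 days with PBS, the vehicle control, or with PFF, pre-formed fibrils of human alpha-synuclein that seed aggregation of the neurons' own protein. In the PFF+MLi-2 group the PFF cultures also received MLi-2, which inhibits LRRK2, a kinase, during the final 5 days. In the PFF+Rab5 ASO group they received antisense oligonucleotides against the endosomal GTPases Rab5a and Rab5b during the final 3 days. There were 3 libraries in each group, all labelled as batch 1, and no group received MLi-2 or the ASO without PFF, so an action of either agent on its own cannot be told apart from an action on the response to PFF. No group received a control oligonucleotide, so an action of oligonucleotides as such cannot be told apart from one of lower Rab5.

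The E-box is a short palindromic DNA word, CACGTG, that is bound by dimers of basic helix-loop-helix proteins. USF1 and USF2 bind it as widely expressed activators. MYC binds it as a dimer with MAX, and MLXIP, a glucose-responsive factor, binds related sites as a dimer with MLX. CLOCK and ARNTL (also called BMAL1) form the activating dimer of the circadian clock, whereas BHLHE40 and BHLHE41 are clock-controlled repressors that occupy the same sites. Transcription of Arntl is itself set by the nuclear receptors ROR and REV-ERB, which share a short element. The lysosomal regulators TFEB and TFE3 read an E-box too.

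The word CACGTG was found within 100 bp of the highest summit in 5 of the 84 regions (5.95%), compared with 3.52% of all regions. These 5 were the start-site regions of Max, Mlx and Bhlhe41 and further regions of Bhlhe41 upstream of its start and in its coding sequence. Bhlhe41 thus held 3 of the 5 matches. The sequences below are from GRCm38, read 5′ to 3′ on the strand of the gene, and are shown because they hold an E-box at the start sites of Max, Mlx and Bhlhe41 and in the upstream region of Bhlhe41. The capitals mark CACGTG. Stretches in annotated exons were left out.
Max, chr12:76962383-76962583: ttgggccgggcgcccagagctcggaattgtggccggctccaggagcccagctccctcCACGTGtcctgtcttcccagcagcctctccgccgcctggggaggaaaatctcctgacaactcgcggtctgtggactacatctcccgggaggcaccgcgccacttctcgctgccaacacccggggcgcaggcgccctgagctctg
Mlx, chr11:101087165-101087276: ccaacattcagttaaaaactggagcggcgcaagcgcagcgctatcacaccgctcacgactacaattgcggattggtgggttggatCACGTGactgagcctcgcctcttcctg
Bhlhe41, chr6:145865559-145865664: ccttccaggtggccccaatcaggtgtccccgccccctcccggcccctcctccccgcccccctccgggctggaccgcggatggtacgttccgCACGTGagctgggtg
Bhlhe41, upstream region, chr6:145866700-145866900: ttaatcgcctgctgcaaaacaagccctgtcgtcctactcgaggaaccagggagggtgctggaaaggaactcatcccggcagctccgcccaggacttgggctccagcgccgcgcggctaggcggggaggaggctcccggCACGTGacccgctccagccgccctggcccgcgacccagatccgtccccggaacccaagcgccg
In the start-site regions the word lay 41 bp upstream of the summit at Max, 12 bp upstream at Mlx and 7 bp upstream at Bhlhe41. The related word CACGTT, found in 3.12% of all regions, occurred in 2 of the 84 regions, 1 of Bhlhe41 and 1 of Arntl.

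The ROR/REV-ERB element, searched as TAGGTCA or TGGGTCA on both strands, was found in 9 of the 84 regions (10.7%) and in 2.99% of all regions. Arntl held 5 of the 9 and Mlx and Mlxip 2 each. The Arntl match nearest to its start lay in a region 5.68 kb upstream, 23 bp downstream of the summit, and is printed with the element in capitals because this region recurs in the comparisons.
Arntl, upstream region, chr7:113201681-113201881: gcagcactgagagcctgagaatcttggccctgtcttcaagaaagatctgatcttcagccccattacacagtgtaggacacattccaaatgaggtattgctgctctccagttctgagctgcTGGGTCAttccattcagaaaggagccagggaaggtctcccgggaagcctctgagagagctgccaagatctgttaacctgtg
The AP-1 word TGANTCA occurred in 4 of the 84 regions (4.76%), all in Arntl, and in 10.8% of all regions. The D-box words TTATGTAA and TTACGTAA and the cAMP response element TGACGTCA had 0 matches in the 84 windows and occurred in 0.895% and 0.406% of all regions. A match describes the letters in a window and is not a binding site.

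The 12 peak lists held 137417 to 184717 peaks each. Relative sequencing depth, estimated as the peak caller's commonest background divided by the smallest peak width of the library and scaled to a mean of 1, was 0.912 to 0.977 in PBS, 0.775 to 0.919 in PFF, 0.957 to 1.03 in PFF+MLi-2 and 1.05 to 1.31 in PFF+Rab5 ASO. The smallest peak in a list was 53 to 59 bp wide in PFF+Rab5 ASO and 62 to 66 bp in the other 9 libraries, and this width enters the depth estimate. The background alone was 1.815 to 2.113 fragments in PFF+Rab5 ASO and 1.503 to 1.899 in the others, which overlapped. Promoters of the 12 neuronal marker genes examined had a peak in all 12 libraries. Among non-neuronal markers, 4 of 5 astrocyte promoters and 3 of 5 of the oligodendrocyte lineage had a peak in every library. No library had a peak at 3 of 5 microglial promoters (Aif1, Cx3cr1 and Csf1r) or 2 of 3 endothelial promoters (Pecam1 and Cdh5). The microglial Ptprc and P2ry12 had a peak in 9 and 3 libraries, and the endothelial Cldn5 in 1. The promoters of Rab5a, Rab5b and Lrrk2 were accessible in all 12 libraries, which checks no label. The Lrrk2 promoter stood at 89.8 to 94.9 in PFF+Rab5 ASO and at 97.6 to 99.5 in the other 9 libraries.

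Of the 84 regions, 42 (50%) had a peak in all 12 libraries, compared with 27.5% of all regions, and 11 (13.1%) had a peak in a single library, compared with 26.6%. By position 46 lay in introns, 20 upstream of the gene, 8 in coding exons, 5 in untranslated exons and 5 in exons of noncoding transcripts. Every gene had a start-site region, defined as its most accessible region within 1 kb of a start of a protein-coding transcript, and all 10 start-site regions had a peak in 12 of 12 libraries. The 27 regions within 1 kb of a start, these 10 included, were present throughout in 66.7% of cases, and the 57 distal regions in 42.1%.

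The genes differed widely in how many regions they carried. Arntl, which spans 107 kb, had 34 regions of which 13 were present in every library and 7 in only 1. Clock, its dimer partner, spans 94.9 kb and had 2 regions, its start site and an intronic region seen in 5 libraries. Mlxip had 12 regions, 8 of them constant, Myc and Bhlhe41 had 8 each with 5 constant, Usf2 had 6 with 3 constant, and Usf1 and Bhlhe40 had 4 each with 2 and 1 constant. Max and Mlx had 3 regions each with 2 constant. In the map of called peaks, the unbroken columns are the 10 start sites, other regions near a start and 24 of the 57 distal regions, and Arntl has more columns with gaps than any other gene.

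**Figure D1:**
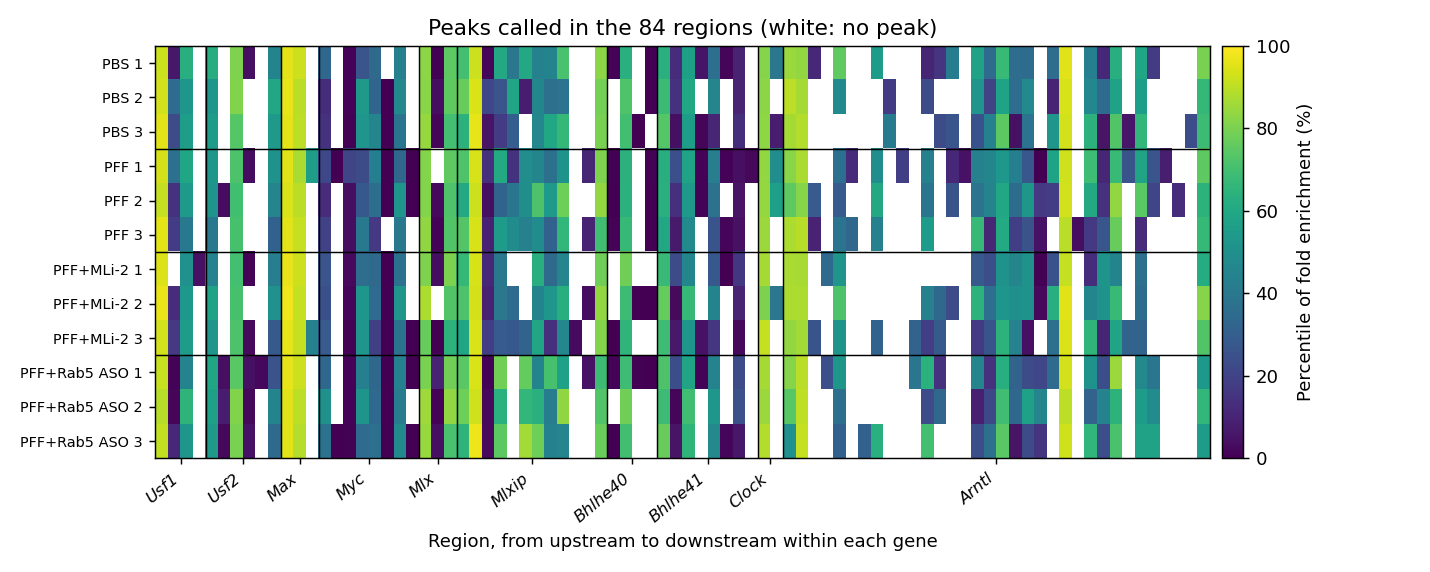
Peaks called in each of the 12 libraries (rows) at the 84 regions (columns, ordered from upstream to downstream within each gene). Colour gives the percentile of the peak's fold enrichment within its library and white means that no peak was called. The 42 constant regions are the columns without white, and Arntl has more columns with gaps than any other gene.

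In such bulk libraries, fewer cells with an open region and less signal per cell cannot be told apart. Accessibility was read as the percentile of a region's fold enrichment among all peaks of the same library, where a percentile near 100% is among the highest peaks. At the start sites, the order from the highest mean over 12 libraries was Max (96.0% ± 0.82, SD), Mlxip (94.1% ± 1.48), Usf1 (93.1% ± 2.29), Arntl (87.5% ± 2.69), Clock (84.9% ± 2.93), Usf2 (74.7% ± 4.55), Mlx (74.4% ± 5.03), Bhlhe40 (69.2% ± 5.09), Bhlhe41 (57.5% ± 7.20) and Myc (43.2% ± 5.87). Clock lay above Usf2, Bhlhe40 above Bhlhe41 and Bhlhe41 above Myc in 12 of 12 libraries. Usf2 and Mlx did not differ beyond their spread, with Usf2 above Mlx in 5 of 12 libraries. Among the 3 highest, Max lay above Mlxip in 10 libraries and Mlxip above Usf1 in 9.

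The low rank of Myc depended on what the peak caller divided by. Fold enrichment is the summit's fragment pileup over a local background, and around Myc that background was 10.6 to 10.8 fragments on average, compared with a median of 2.46 over all regions with a peak in every library. The region chosen by the rule as the Myc start site, region 7, lies in an intron 1.64 kb downstream of the gene start, near the start of another coding transcript, and regions 4 and 5 at the gene start itself averaged 41.1% and 33.5%. The summit pileup of region 7 was 57.1 fragments, at the 96.7 percentile of its libraries. At Bhlhe40, the clock-controlled repressor, the start site stood at the 69.2 percentile by fold enrichment and at the 98.8 percentile by pileup. By contrast, distal regions on a low background such as Arntl region 1 ranked higher by fold enrichment (81.0) than by pileup (65.7). Regions are numbered from upstream to downstream within each gene.

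**Figure D2:**
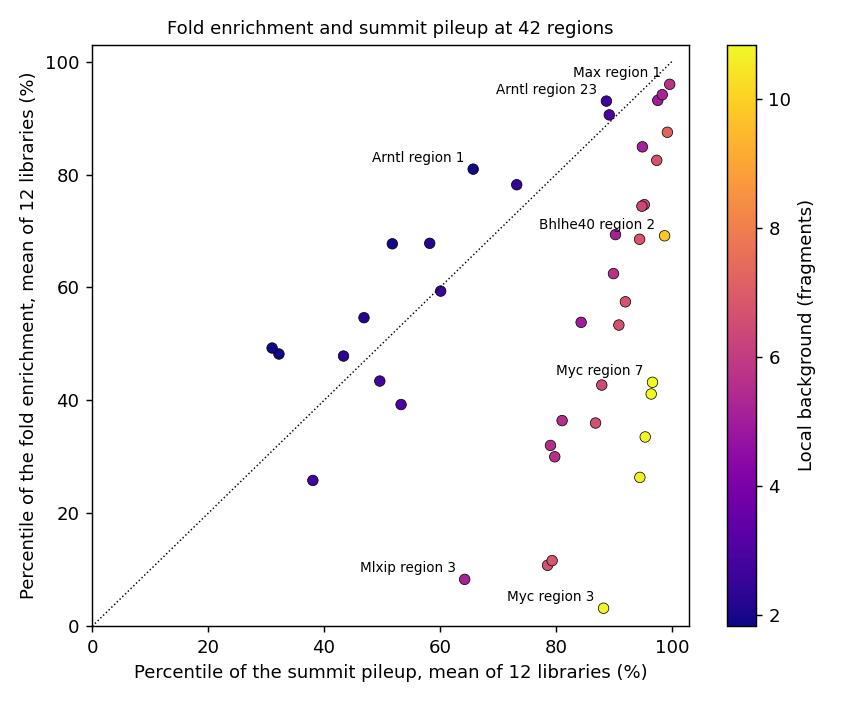
Mean percentile of the fold enrichment (vertical axis) against mean percentile of the summit pileup (horizontal axis) for the 42 constant regions, each over 12 libraries, with the local background as colour and the dotted line at equality. Myc region 7, the Myc start site, lies at 96.7 by pileup and 43.2 by fold enrichment, and regions with a high background lie below the line.

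Distal regions of several genes ranked as high as start sites. Arntl region 23, in an intron 53.2 kb from the gene start (chr7:113260376-113260794), averaged 93.0%, and Max region 2, in an intron (chr12:76954770-76955544), averaged 90.6%. Mlx region 1 (chr11:101082172-101082765, 82.5%) lies at the start of the neighbouring gene Coasy, and Mlxip region 12, in an intron 49.5 kb from the start (chr5:123444157-123444356), averaged 78.2% and holds a ROR/REV-ERB element. The highest distal regions of Bhlhe41 and Myc were region 1 of each, at 68.5% and 26.4%. The highest distal regions of Clock, Bhlhe40 and Usf1 lacked a peak in 7, 5 and 11 libraries, and Usf2 had no distal region.

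At the start sites, no group difference passed the test. Height ranks were tested with limma on normal scores, the quantiles of a standard normal curve that replace each library's ranks among the 72408 constant regions (peak called in every library), so that a difference is in standard deviations (SD) of that score. In the test of the 4 groups together (limma F test), the smallest p among the 10 start sites was 0.137 (adjusted p = 0.376), at Usf1. Usf1 percentiles were 92.2, 93.2 and 95.7 in PBS, 93.5, 91.1 and 95.9 in PFF, 94.6, 96.6 and 93.3 in PFF+MLi-2 and 91.5, 89.2 and 90.7 in PFF+Rab5 ASO. At Usf1, the 3 PFF+Rab5 ASO libraries lay below the 3 PBS libraries and below the other groups except for 1 PFF library between them.

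At Max the PFF libraries (94.38 to 95.37) lay below all others, the lowest of which was 95.39 (limma F test, adjusted p = 0.555). On the ranks among constant regions, only PFF and PFF+MLi-2 did not overlap at Max. At Usf2 and Bhlhe41 some groups did not overlap in percentile, but no group stood apart from all the others. At Usf2 the percentiles were 80.6, 80.9 and 73.5 in PBS, 72.0, 69.7 and 70.7 in PFF, 70.2, 71.1 and 72.1 in PFF+MLi-2 and 74.3, 81.0 and 79.7 in PFF+Rab5 ASO. All 3 PFF libraries lay below all 3 PBS libraries and all 3 PFF+Rab5 ASO libraries, although PFF and PFF+Rab5 ASO overlapped on the ranks among constant regions, and the difference from PBS was -0.40 ± 0.21 (SE, limma adjusted p = 0.586) and -0.09 when height was ranked by summit pileup in place of fold enrichment, an alternative chosen after seeing the data. At Bhlhe41 the PFF+Rab5 ASO libraries stood at 58.6, 69.2 and 65.3 against 57.8, 53.7 and 47.5 in PFF, a difference of 0.42 ± 0.21 (limma adjusted p = 0.276). The PFF+Rab5 ASO libraries overlapped those of PBS (55.48 to 59.85) and PFF+MLi-2 (46.04 to 66.99) there. At Arntl the PFF+Rab5 ASO libraries stood at 89.7, 90.5 and 91.4, above the other 9, which ran from 82.0 to 89.2. At its partner Clock the PBS libraries (82.0 to 83.2) lay below those of PFF (83.98 to 85.0) and PFF+Rab5 ASO (84.9 to 88.5), with PFF+MLi-2 from 80.5 to 91.1. Neither site passed the test (limma F test, adjusted p = 0.750 for Arntl and 0.742 for Clock), and on the ranks among constant regions the groups overlapped at both sites in each comparison.

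**Figure D3:**
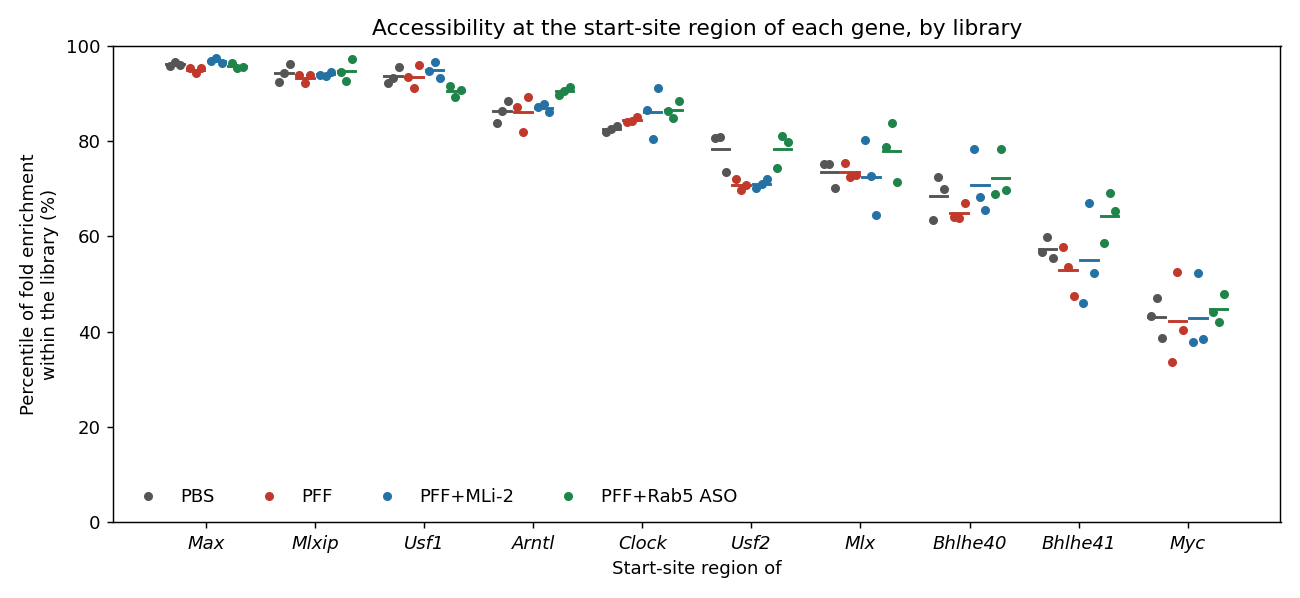
Percentile of fold enrichment at the start-site region of each gene in every library (points) with the group mean (bars, 3 libraries each), genes ordered by their mean. The 3 PFF libraries of Usf2 lie between 69.7 and 72.0, below the 3 PBS libraries.

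The first comparison asks which regions opened or closed when neurons met fibrils. A region was called gained when a peak was called in 3 of 3 treated libraries and in 0 of 3 of the group they were compared with, and lost in the reverse case, since 3 libraries against 3 cannot give an exact p under 0.1. With PFF compared with PBS, 1 of the 78 regions tested was gained (1.1% of all regions were) and 0 were lost (0.404% of all regions). The gained region was Arntl region 21, in an intron 44.3 kb from the gene start (chr7:113251534-113251895). Its percentile was 0.29, 16.6 and 4.73 in PFF, 0.74 and 2.70 in 2 libraries treated with MLi-2 and 21.3, 45.5 and 15.3 in PFF+Rab5 ASO, and no peak was called in PBS or in PFF+MLi-2 replicate 3. It was thus a weak peak in PFF and it was not lost with MLi-2. The PFF+Rab5 ASO and PFF percentiles overlapped, and height was not tested at this region because it lacked a peak in some libraries. It begins 122 bp after region 20, which had a peak in all 12 libraries. At a stricter threshold of -log10 q of 3 the call was lost, because PFF replicate 1 had a value of 2.71, and it was also lost with equal numbers of top peaks per library and when peaks had to cover 50% of the region. The window around its summit held none of the words searched.
Arntl region 21, chr7:113251633-113251833: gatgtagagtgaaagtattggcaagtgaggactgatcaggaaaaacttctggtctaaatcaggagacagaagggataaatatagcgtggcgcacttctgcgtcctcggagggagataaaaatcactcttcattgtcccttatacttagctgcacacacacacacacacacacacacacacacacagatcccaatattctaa

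At the 42 constant regions, 0 differed between PFF and PBS (limma, adjusted p under 0.05; 0% of all regions passed), and 1 had an unadjusted p under 0.05 against 9.71% of all regions. This was Myc region 3, 892 bp upstream of the Myc gene start (chr15:61984382-61984590). Its percentile was 1.16, 1.00 and 0.50 in PBS, 21.0, 3.55 and 3.58 in PFF, 2.47, 1.78 and 0.62 in PFF+MLi-2 and 1.08, 1.02 and 0.51 in PFF+Rab5 ASO. The PFF libraries lay above all 9 others, with a difference from PBS of 0.67 ± 0.24 (limma adjusted p = 0.405), or 0.31 when ranked by pileup. PFF replicate 1 stood far above the other 2. The region stands on the high background of Myc, and outside PFF replicate 1 it lay below the 4th percentile although its pileup was 31 to 49 fragments in the 12 libraries.

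Groups that did not overlap were counted as a further description, on ranks among the constant regions, which can separate groups whose percentiles in the whole lists overlap. With PFF, 1 of the 42 regions lay wholly above PBS (7.07% of all regions did) and 6 lay wholly below (7.99% of all regions). The 6 were Usf1 region 3, Usf2 regions 1 and 3, Bhlhe41 region 7 and Arntl regions 18 and 23. At Bhlhe41 region 7, in the coding sequence, the percentiles were 9.75, 9.86 and 13.0 in PBS and 4.23, 5.16 and 4.57 in PFF (-0.38 ± 0.21, limma adjusted p = 0.595), with a difference of -0.12 when ranked by pileup. The score was higher in PFF at 11 of the 42 regions (26.2%, against 47.4% of all regions) and lower at 31, with a median difference of -0.13 against -0.02 over all regions. Ranked by pileup it was higher at 23 and lower at 19, with a median of 0.01. All 3 constant regions of Usf2 lay lower, by -0.34 to -0.40.

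With MLi-2 added to PFF, 0 of 80 regions were gained (0.374% of all regions) and 0 were lost (1.64% of all regions). None of the 42 constant regions passed limma (0% of all regions passed) and 3 had an unadjusted p under 0.05 (7.14%, against 11.4% of all regions), all higher with MLi-2. They were Arntl region 19, Bhlhe41 region 1 and Myc region 4, whose differences were 0.58 ± 0.20, 0.51 ± 0.19 and 0.61 ± 0.25 (SE, limma adjusted p = 0.345, 0.376 and 0.400). Ranked by summit pileup, they were 0.20, 0.09 and 0.12. Arntl region 19, in an intron 43.4 kb from the start (chr7:113250529-113250974), holds both an AP-1 word and a ROR/REV-ERB element. Its percentiles were 43.0, 35.5 and 18.7 in PFF and 45.5, 50.4 and 44.3 in PFF+MLi-2, and in PBS they ran from 4.58 to 36.0. Bhlhe41 region 1, the E-box region upstream of that repressor's start, moved from 63.0, 63.7 and 59.9 in PFF to 67.6, 76.6 and 68.9 in PFF+MLi-2.

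Without overlap, 8 of the 42 regions were higher with MLi-2 than with PFF alone (10.1% of all regions were) and 1 was lower (7.54% of all regions), the latter being Myc region 3. The score was higher at 33 of the 42 regions (78.6%, against 51.7% of all regions), with a median difference of 0.14 against 0.01 over all regions. This comparison and the one of PFF with PBS share the PFF libraries. When height was ranked by summit pileup in place of fold enrichment, the score with MLi-2 was higher at 19 and lower at 23, with a median of -0.02. The summed percentile of the 12 neuronal marker promoters was 746 to 814 in PBS, 702 to 757 in PFF, 780 to 799 in PFF+MLi-2 and 755 to 800 in PFF+Rab5 ASO, so that PFF overlapped PBS and lay below PFF+MLi-2. The sum over the 5 astrocyte promoters was 250 to 256 in PFF, below PBS (258 to 283) and PFF+MLi-2 (259 to 288), and that over the 5 of the oligodendrocyte lineage was 240 to 259 in PFF, 233 to 240 in PBS and 230 to 245 in PFF+MLi-2. The part of these markers in the shifts was not tested. In the direct comparison of PFF+MLi-2 with PBS, 0 of 73 regions were gained (0.226% of all regions) and 0 lost (0.577% of all regions), and 0 of 42 passed limma (0% of all regions), with 2 at an unadjusted p under 0.05 (4.76%, against 5.77% of all regions). Without overlap 3 were higher (5.21% of all regions) and 2 lower (5.13% of all regions). The smallest p was at Arntl region 29, in an intron (chr7:113289287-113289514), at 58.9, 56.2 and 66.2 in PBS and 37.0, 35.2 and 31.7 in PFF+MLi-2 (-0.68 ± 0.22, limma adjusted p = 0.828). Next came Arntl region 19 (0.755 ± 0.29, adjusted p = 0.843) and Mlxip region 7, in an intron (chr5:123432155-123432494, 0.44 ± 0.24, adjusted p = 0.899).

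**Figure D4:**
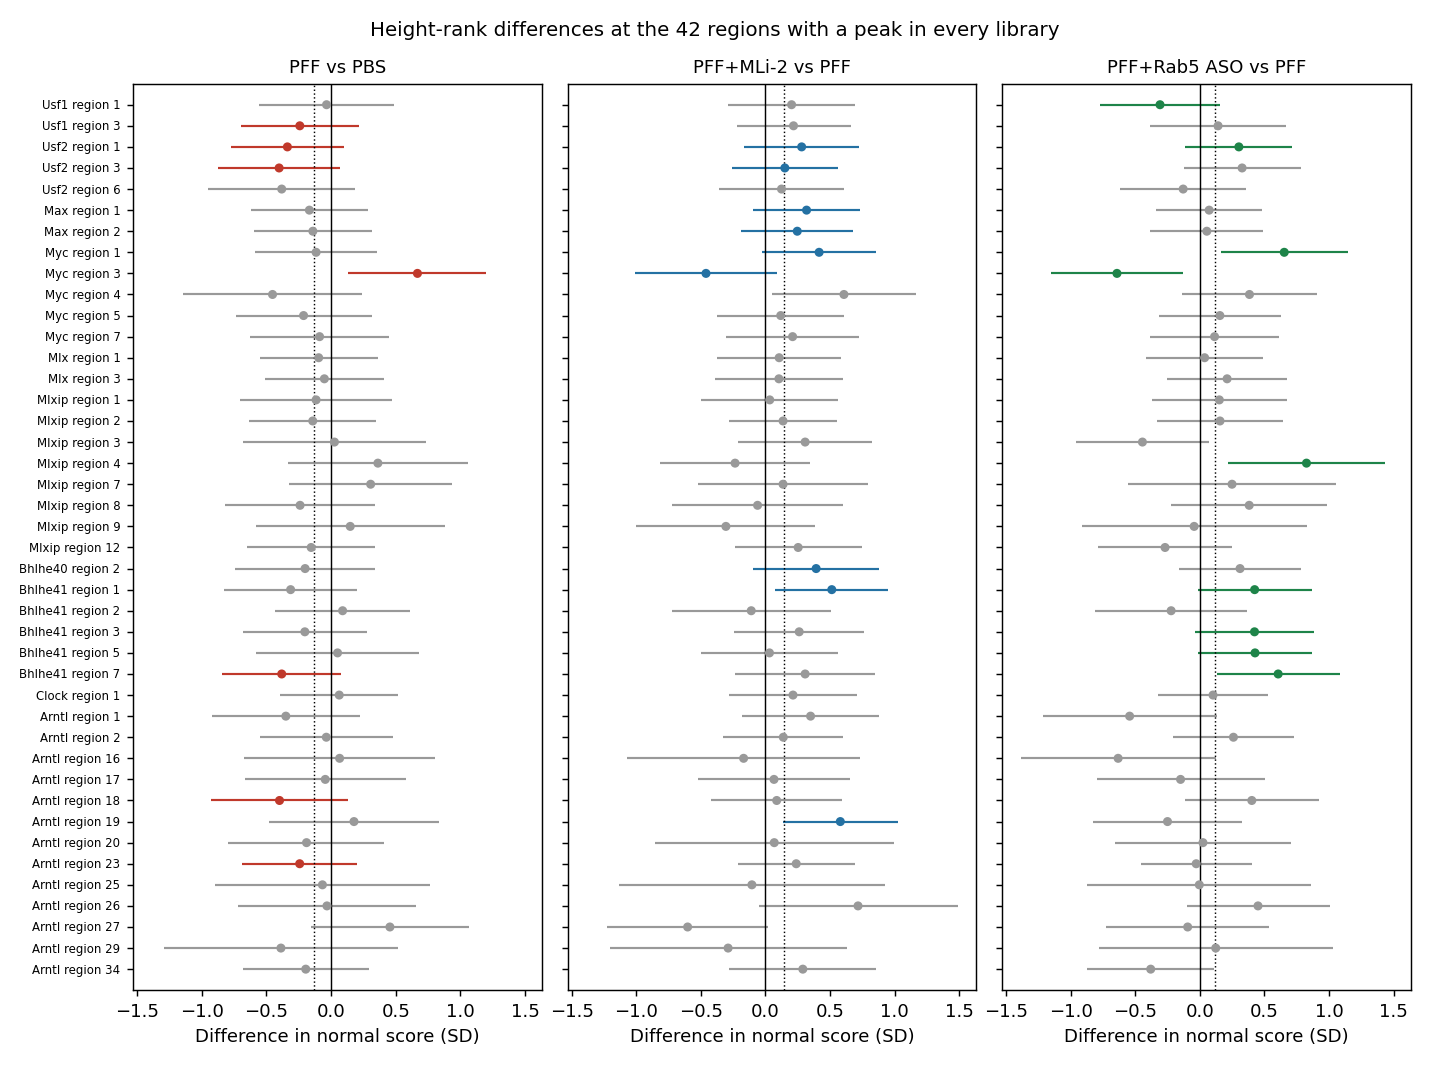
Differences in normal score (points, in SD) with 95% confidence intervals from limma at the 42 constant regions for 3 comparisons, 3 libraries against 3 each. Coloured regions had groups that did not overlap, grey ones did, and the dotted line is the median, which lay at -0.13 for PFF vs PBS, 0.14 for PFF+MLi-2 vs PFF and 0.12 for PFF+Rab5 ASO vs PFF.

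With the Rab5 ASO added to PFF, 0 of 80 regions were gained (2.63% of all regions) and 1 was lost (1.94% of all regions). The lost region was Mlxip region 5, in an intron 22.3 kb from the start of this glucose-responsive factor's gene (chr5:123416875-123417186). It had a peak in all 3 PBS libraries (percentiles 39.7, 58.9 and 29.9), in all 3 PFF libraries (14.5, 38.7 and 48.2), in 2 PFF+MLi-2 libraries (35.1 and 27.6) and in no PFF+Rab5 ASO library. The peaks rested on 10 to 15 fragments at the summit, and the call was lost with equal numbers of top peaks per library and when peaks had to cover 50% of the region. The part of depth and peak width in this call was not tested. The window around its summit is given because it carries the region lost with the Rab5 ASO, and none of the words searched occurs in it.
Mlxip region 5, chr5:123417044-123417244: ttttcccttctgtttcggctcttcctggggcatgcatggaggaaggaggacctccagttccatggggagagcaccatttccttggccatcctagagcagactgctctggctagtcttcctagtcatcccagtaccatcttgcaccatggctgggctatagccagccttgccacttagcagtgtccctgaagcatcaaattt

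The neighbouring intronic regions of Mlxip stood higher with the Rab5 ASO. Mlxip region 4, 2731 bp upstream of region 5 (chr5:123413635-123414143), had percentiles of 60.4, 26.2 and 17.7 in PBS, 61.3, 32.2 and 55.2 in PFF, 39.9, 39.6 and 28.7 in PFF+MLi-2 and 78.8, 63.8 and 74.7 in PFF+Rab5 ASO. The 3 PFF+Rab5 ASO libraries lay above the other 9. The difference was 0.83 ± 0.27 from PFF (limma adjusted p = 0.120) and 1.19 ± 0.28 from PBS (limma adjusted p = 0.0627), and the F test of the 4 groups gave an adjusted p of 0.0709, the smallest of the 42 regions in each test. It passed against PBS when log2 fold enrichment was tested (adjusted p = 0.047) and when all 12 libraries were fitted together (0.0435), and in the F test without PBS replicate 1 (0.043). With relative depth in the F test its adjusted p was 0.435. The depth estimate was higher in all 3 PFF+Rab5 ASO libraries than in the other 9, so depth and the ASO cannot be told apart in that fit. Mlxip region 6, 6694 bp downstream of region 5, had a peak in all 3 PFF+Rab5 ASO and all 3 PFF libraries, in 2 PBS libraries and in 1 PFF+MLi-2 library, at 48.8, 49.99 and 43.4 in PFF and 76.4, 66.1 and 86.2 in PFF+Rab5 ASO. Among regions present in the 6 libraries of that comparison its difference was 1.00 ± 0.25 (limma adjusted p = 0.0623).

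**Figure D5:**
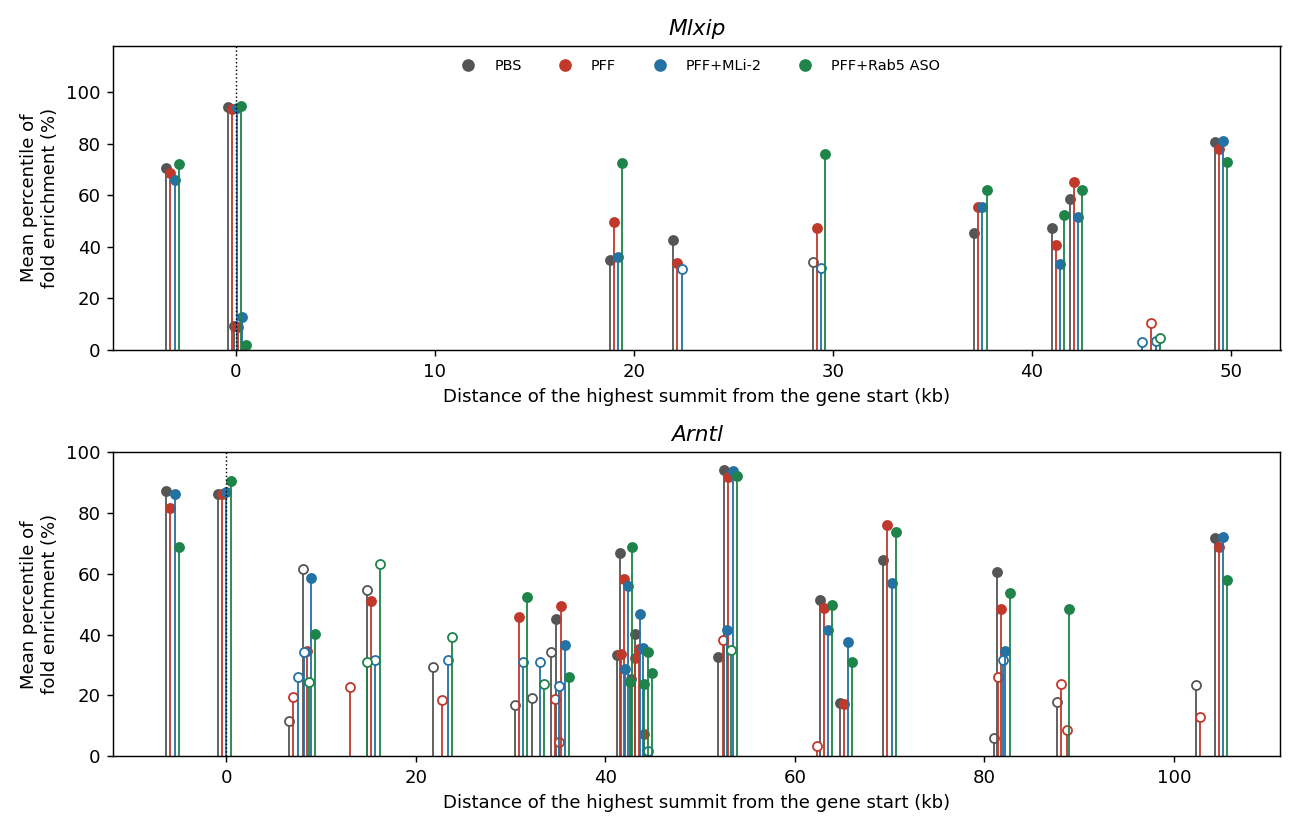
Mean percentile of fold enrichment of each group at every region of Mlxip and Arntl against the distance of its highest summit from the gene start (kb). Filled points have a peak in 3 of 3 libraries and open points in 1 or 2, with the mean over those. In Mlxip the PFF+Rab5 ASO group has no point at 22.3 kb and the highest mean of the 4 groups at 19.1 and 29.3 kb.

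None of the 42 constant regions passed limma between PFF+Rab5 ASO and PFF, whereas 3.82% of all regions did, and 4 of the 42 had an unadjusted p under 0.05 against 21.1% of all regions. The number of all regions that passed, 2767, fell to between 0 and 981 when a library was left out, with 0 without PFF+Rab5 ASO replicate 1. After Mlxip region 4 the members were led by Myc region 1, 1.87 kb upstream of the Myc start (chr15:61983377-61983619). It stood at 21.8, 12.8 and 19.9 in PFF and 33.3, 50.2 and 37.5 in PFF+Rab5 ASO (0.65 ± 0.22, limma adjusted p = 0.125). Bhlhe41 region 7 followed with 4.23, 5.16 and 4.57 in PFF and 23.3, 24.8 and 6.54 in PFF+Rab5 ASO (0.61 ± 0.21, adjusted p = 0.141). Ranked by pileup, the differences at these regions were 0.98 for Mlxip region 4, 0.15 for Myc region 1 and 0.11 for Bhlhe41 region 7. Myc region 3 was the remaining one and lay lower with the Rab5 ASO. Without overlap 7 of 42 regions were higher (13.5% of all regions) and 2 were lower (12.4% of all regions). Bhlhe41 supplied 4 of the 7, its regions 1, 3, 5 and 7, with differences of 0.42 to 0.61. These regions share 1 locus of a few kb and are not independent of each other. The median difference over the 42 regions was 0.12 against 0.01 over all regions, and -0.03 when height was ranked by pileup.

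Compared with PBS, the PFF+Rab5 ASO group gained 2 of 74 regions (2.59% of all regions) and lost 1 (0.992% of all regions). The gained regions were Arntl region 21, described above, and Usf2 region 2, 399 bp upstream of the Usf2 start (chr7:30957150-30957242). The latter had percentiles of 3.91, 8.09 and 1.98 in PFF+Rab5 ASO and 3.37 in 1 PFF library, no peak in the other 8, and is 93 bp wide with constant regions 26 and 56 bp to either side. The smallest peaks were narrower in the Rab5 ASO libraries (53 to 59 bp against 62 to 66 bp), and the part of peak width in this call was not tested. The lost region was again Mlxip region 5. None of 42 regions passed limma (1.63% of all regions did, 1180 in number, and 0 to 29 when any library was left out) and 4 of the 42 had an unadjusted p under 0.05 (9.52%, against 18.7% of all regions). Arntl region 1, the upstream region with the ROR/REV-ERB element, was at 85.2, 90.2 and 86.4 in PBS and 81.8, 73.9 and 50.4 in PFF+Rab5 ASO, a difference of -0.89 ± 0.29 (limma adjusted p = 0.131). Arntl region 34, in an intron near the 3′ end of the gene (chr7:113311882-113312099), was at 80.0, 66.8 and 68.7 in PBS and 53.3, 66.1 and 54.9 in PFF+Rab5 ASO (-0.58 ± 0.23, adjusted p = 0.204). Without overlap 2 regions were higher (11.4% of all regions) and 5 were lower (11.6% of all regions), 3 of the 5 in Arntl.

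Over the 4 groups together, 0 of the 42 regions passed the limma F test, compared with 3.5% of all regions, and 5 of the 42 had an unadjusted p under 0.05 against 21.7% of all regions. The 2534 calls over all regions became 24 with relative depth as a covariate and 279 to 2206 when a library was left out, lowest without PFF+Rab5 ASO replicate 3. The depth estimate of every PFF+Rab5 ASO library (1.05 to 1.31) exceeded those of the other groups (at most 1.03). Depth and the Rab5 ASO therefore cannot be told apart in the fit with depth. The 3 smallest p were those of Mlxip region 4 (0.004), Arntl region 1 (0.0177, adjusted 0.141) and Myc region 1 (0.021, adjusted 0.153). The number of the 84 regions with a peak was 52 to 60 in PBS, 57 to 69 in PFF, 51 to 61 in PFF+MLi-2 and 53 to 63 in PFF+Rab5 ASO, and these ranges overlapped. On average this was 66.3%, 74.6%, 66.3% and 69.05% of the 84 regions, against 50.1%, 53.1%, 46.5% and 54.0% of all regions. A p above the threshold does not show that accessibility was equal.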

How the data were processed

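The authors trimmed reads with Trim Galore 0.6.7, checked them with FastQC, aligned them to GRCm38 with Bowtie2 2.5.1 and called peaks in each library with MACS2 2.2.7.1, according to the submitters' processing notes. The study's methods give default mapping parameters for Bowtie2, and the MACS2 options, duplicate handling and any shift of reads for the transposase are not given in the sources used here. The deposited peak lists gave a score, a fold enrichment (a ratio of summit pileup to local background), a -log10 p-value and a -log10 q-value for each peak. The deposited score equalled the -log10 q-value times 10, and read counts were not used here. For samples given MLi-2 or the Rab5 ASO the description field names PBS in place of PFF, and groups follow the titles and the treatment labels.

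Overlapping peaks were merged, a region took the highest peak of each library, and genes came from GENCODE vM21. Summit pileup and background were recovered from fold enrichment and p-value, and relative depth was the commonest background divided by the smallest peak width. Gained and lost regions and ranks were computed with Python 3.11.15, numpy 2.4.6 and pandas 2.3.3, and limma 3.58.1 in R 4.3.3 tested normal scores of the within-library rank, with Benjamini-Hochberg adjustment over 72408 regions and 6 libraries per comparison. Scripts were tested on simulated data. Motifs were searched on both strands within 100 bp of the highest summit. Besides gained and lost regions, the 3 regions with the smallest p in each comparison were named, and regions named for other reasons were chosen after their values were seen. The members and gene lists were chosen with earlier results of these data known. The study's methods count a pregnancy as a replicate and divide its cultures among groups, but neither they nor the labels say that a library's replicate number marks a pregnancy, so p-values measure the spread between these libraries, which may be partly technical. Figures were drawn with matplotlib 3.10.9.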

Additional observations from a re-analysis of the deposited data

How the results depend on the processing

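Counts of gained and lost regions were small and moved with the peak rule. With equal numbers of top peaks per library, PFF vs PBS gained 0, and PFF+Rab5 ASO vs PFF gained 1 and lost 0. With a stricter threshold, PFF vs PBS gained 0 and PFF+Rab5 ASO vs PFF lost 2. When peaks had to cover 50% of a region, PFF vs PBS gained 1, Arntl region 12 in place of region 21, PFF+Rab5 ASO vs PFF gained 2 and lost 2, and PFF+Rab5 ASO vs PBS gained 5 and lost 0. With at least 2 of 3 libraries against 0, PFF vs PBS gained 4 and lost 2, PFF+MLi-2 vs PFF gained 1 and lost 2, PFF+Rab5 ASO vs PFF gained 1 and lost 5, PFF+MLi-2 vs PBS gained 1 and lost 1, and PFF+Rab5 ASO vs PBS lost 4. Leaving out each library in turn gave 1 to 3 gained and 0 to 1 lost for PFF vs PBS, 0 to 1 and 0 to 3 for PFF+MLi-2 vs PFF, 0 to 1 and 1 to 3 for PFF+Rab5 ASO vs PFF, 0 to 1 and 0 to 1 for PFF+MLi-2 vs PBS, and 2 to 4 and 1 to 3 for PFF+Rab5 ASO vs PBS. The limma count for PFF+Rab5 ASO vs PBS was 1 of 42 with log2 fold enrichment and 1 of 42 with all 12 libraries in a single fit, Mlxip region 4 in both. Among all 72408 regions, 2542 and 1911 passed under these settings. Leaving out a library gave 0 to 0 limma calls in each pairwise comparison and 0 to 1 in the F test. The causes were not tested. At the 12 regions with one of the 3 smallest p in a comparison, no effect reversed its direction in that comparison, though in other comparisons some did, such as Arntl region 19 for PFF vs PBS (-0.14 to 0.42). The median difference over the 42 regions did when height was ranked by pileup, from -0.13 to 0.01 for PFF vs PBS, 0.14 to -0.02 for PFF+MLi-2 vs PFF and 0.12 to -0.03 for PFF+Rab5 ASO vs PFF. Leaving out a library turned it from 0.04 to -0.03 for PFF+MLi-2 vs PBS (PBS replicate 1 or PFF+MLi-2 replicate 2) and from -0.05 to 0.03 or 0.04 for PFF+Rab5 ASO vs PBS (PBS replicate 2 or PFF+Rab5 ASO replicate 1).

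With the replicate block, 0 of 42 regions passed limma in every comparison, as without it. Among all regions the calls went from 1180 to 0 for PFF+Rab5 ASO vs PBS and from 2767 to 1668 for PFF+Rab5 ASO vs PFF. Deviations of libraries with the same number correlated at 0.005 to 0.079 and those with different numbers at -0.071 to 0.028. All 18 same-number correlations were above 0 but below the 0.1 required here to treat numbers as pairs, and whether a number marks a shared pregnancy is not given in the sources used here. Counts of reads were not used here, which leaves the precision of single peak heights unknown.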

Other observations

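Further genes of the E-box network and the clock were examined in the same way. The 13 network genes, among them those of the lysosomal regulators TFEB and MITF, had 109 regions, and 0 of the 42 constant ones passed limma in any comparison. Of all regions, 3.82% passed for PFF+Rab5 ASO vs PFF, 1.63% for PFF+Rab5 ASO vs PBS, 3.5% in the F test and 0% otherwise. At the 42 constant network regions the score was higher in PFF than in PBS at 38.1%, with a median difference of -0.14. With MLi-2 added to PFF it was higher at 71.4%, with a median of 0.195. The member regions moved in the same directions, and both comparisons share the PFF libraries. With PFF compared with PBS, 3 of 98 network regions were gained (3.06%, against 1.1% of all regions), Tfeb regions 7 and 10 and Mitf region 4. Relative to the same PFF libraries, PFF+MLi-2 lost 2 of 92 (2.17%, against 1.64% of all regions), Tfeb region 10 and Mitf region 4, and PFF+Rab5 ASO lost 4 (3.96%, against 1.94% of all regions), Mycn region 5, Mycl region 3, Tfeb region 11 and Mitf region 4. Gained regions have by definition a peak in all 3 PFF libraries, which the later comparisons share. Calls in these lists were not repeated under the other peak rules. These lists were chosen with earlier results of these data known.

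The 17 clockwork genes had 325 regions, of which 85 were constant. With PFF compared with PBS, 6 of 261 were gained (2.3%, against 1.1% of all regions) and 0 lost (0.404% of all regions). PFF+MLi-2 vs PFF lost 7 of 259 (2.7%, against 1.64% of all regions) and gained 3 (1.16%, against 0.374%). PFF+Rab5 ASO vs PFF lost 6 of 278 (2.16%, against 1.94% of all regions) and gained 3 (1.08%, against 2.63%). With the Rab5 ASO compared with PFF, 3 of the 85 passed limma (3.82% of all regions did). Rora region 46, in the gene of a nuclear receptor that acts on Arntl (chr9:68820476-68820746), rose from a mean percentile of 51.0 to 82.7 (limma adjusted p = 0.0464). Cry1 region 1, 5.77 kb upstream of the gene of a clock repressor (chr10:85190651-85190999), fell from 87.9 to 70.6 (adjusted p = 0.0444). Dbp region 8, in the gene of a D-box activator, rose from 1.17 to 8.91 (adjusted p = 0.0488). With the replicate block the adjusted p were 0.0451, 0.0655 and 0.0809, so that the calls at Cry1 and Dbp were lost. None of the 3 calls held when any of the 6 libraries was left out, with adjusted p of 0.0661 to 0.114, 0.0621 to 0.114 and 0.0769 to 0.14.

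Rora region 34 (chr9:68755132-68755447) stood at a mean percentile of 36.7 ± 5.89 in PBS and 82.7 ± 7.33 in PFF. It averaged 70.1 ± 4.53 with MLi-2 and 90.6 ± 3.72 with the Rab5 ASO (SD, 3 libraries each). With PFF compared with PBS, 0 of the 85 constant clockwork regions passed limma, this one included (0% of all regions passed). An unadjusted p under 0.05 was found at 3 of the 85 (3.53%, against 9.71% of all regions). The pairwise pass of Rora region 34 was PFF+Rab5 ASO vs PBS (limma adjusted p = 0.0209), which held in 1 of 6 fits that left out a library and was lost with the replicate block (adjusted p = 0.0739). Rora region 34 differed between the groups (limma F test, adjusted p = 0.00858). It passed in 12 of 12 fits that left out a library (0.0111 to 0.0361). With relative depth as a covariate it did not pass (0.0574), but depth and the Rab5 ASO cannot be told apart there. Of the 85 regions, 2 passed the F test (3.5% of all regions did) and 2 passed for PFF+Rab5 ASO vs PBS (1.63% of all regions). The other was Rora region 46 (adjusted p = 0.0313 and 0.0439), which held in 9 of 12 and 0 of 6 fits that left out a library.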
